A study of Mus musculus with 12 samples.

Results

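The extracellular matrix and matrix remodelling genes are 42 genes chosen by name, through every gene probe that the scanner files assign to one of those names. They are set among 31896 genes named on the array. A gene entered the tests when a probe of it was well above background, as called by the scanner software, on all 3 arrays of at least 1 group. That held for 24146 genes, and for 40 of the 42 matrix genes. Of these 40, 39 were well above background on all 12 arrays. Prelp entered through the control cells with vehicle alone. The collagen gene Col3a1 was well above background on 2 of 12 arrays, and neither probe of the lysyl oxidase gene Lox was on any of the 12 (0 arrays each), so that neither gene was tested.

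The cells were mouse neural stem cells, taken from the E12.5 embryonic cortex, grown in culture and stably transfected with a short hairpin RNA (shRNA). The knockdown line carried an shRNA against JMJD3 and the control line an shRNA of random sequence. Each of the 4 groups had 3 arrays: knockdown cells treated for 2.5 h with 5 ng/ml of TGFb (transforming growth factor beta), knockdown cells with vehicle, control cells with TGFb, and control cells with vehicle. Each array was hybridised with labelled RNA made from 500 ng of total RNA. Each line carries a single shRNA, and the labels say neither whether a line is 1 clone nor whether replicates were separate cultures. The p-values therefore rest on a spread between samples that may be technical only, and an effect of the shRNA cannot be told apart from another difference between the lines. In such bulk samples, fewer cells that make an RNA and less RNA per cell cannot be told apart either.

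The extracellular matrix is the network of secreted proteins and sugars that cells attach to. Fibrillar collagens give it strength, and basement membranes are sheets of laminin, collagen IV, nidogen and heparan sulfate proteoglycans. In the embryonic cortex the end feet of radial glia, the neural stem cells of that tissue, rest on the basement membrane under the meninges. The matrix between brain cells is rich in hyaluronan and in the chondroitin sulfate proteoglycans called lecticans. TGFb is a secreted cytokine that signals through receptor kinases to Smad transcription factors, and in fibroblasts it is known for raising collagen and other matrix genes. JMJD3, the protein of Kdm6b, is a demethylase of histone H3 lysine 27.

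Sequence is shown for the matrix gene with the largest rise with TGFb and for a gene whose probes gave different results. The first is the 250 bases before the start of Tgfbi (RefSeq, GRCm38.p6, chr13:56609336-56609585, plus strand). Capitals mark matches to CAGAC, letters that Smad proteins are known to bind, or to its reverse complement GTCTG.
Tgfbi: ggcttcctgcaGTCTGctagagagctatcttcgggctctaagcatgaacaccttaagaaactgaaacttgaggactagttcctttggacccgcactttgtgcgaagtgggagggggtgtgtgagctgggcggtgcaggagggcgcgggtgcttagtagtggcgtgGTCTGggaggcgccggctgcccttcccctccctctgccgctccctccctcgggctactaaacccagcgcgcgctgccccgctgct
The other lines give the 60-base probes of Loxl1 at chr9:58145451-58145510 and chr9:58138570-58138629 (mm9, minus strand).
Loxl1 probe 1: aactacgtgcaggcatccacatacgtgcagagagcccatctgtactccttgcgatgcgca
Loxl1 probe 2: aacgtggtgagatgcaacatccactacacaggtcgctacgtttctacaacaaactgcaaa
CAGAC was searched on both strands of the 250 bases before each start. It was present in 17 of 35 windows of the 30 matrix genes with an entry (48.6%), against 42.2% of all 32851 windows. Among the matrix genes that rose with TGFb in at least 1 line, 3 of 7 windows held it. The longer Smad letters GTCTAGAC were in 0 of the 35 windows, against 0.167% of all. TGANTCA, the letters of the AP-1 factors, were in 1 of the 35 windows, that of Col6a1, against 6.75% of all. A match is a stretch of letters and not a site shown to be bound.

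All values are log2 signals with the array's own 75th percentile subtracted, differences are on that log2 scale with the standard error (SE) of the fit, and levels of different probes are not compared. Tests are limma's, with Benjamini-Hochberg adjustment over all 24146 genes and a threshold of 0.05. Kdm6b, the targeted gene, read -2.01, -2.12 and -2.01 in knockdown cells with TGFb, -1.95, -1.90 and -1.96 in knockdown cells with vehicle, -0.67, -0.69 and -0.59 in control cells with TGFb and -0.84, -0.73 and -0.75 in control cells with vehicle. The differences between the lines were -1.40 ± 0.054 with TGFb and -1.16 ± 0.054 with vehicle. Known TGFb targets rose in both lines, by (knockdown first) 4.38 and 3.78 for Pmepa1, 3.31 and 2.83 for Smad7, 2.42 and 1.78 for Skil and 1.33 and 1.51 for Id1. Ski had 0.81 and 0.13 and did not pass. In control cells Ski read -3.52, -5.43 and -3.52 with TGFb, so 1 array stood apart, against -4.28, -4.25 and -4.32 with vehicle. In knockdown cells it read -3.50, -3.61 and -3.71 with TGFb, against -4.39, -4.41 and -4.45 with vehicle. All 10 neural stem cell markers, Sox2, Nes and Pax6 among them, were well above background on all 12 arrays. Of the markers of other cell types, 4 of 10 for fibroblasts and meningeal cells were, 3 of 7 for pericytes and smooth muscle, 5 of 8 for endothelial cells, 2 of 7 for microglia, 5 of 6 for neurons, 5 of 5 for astrocytes and 4 of 5 for the oligodendrocyte lineage. Lum, Foxc2 and Twist1 of the fibroblast list, Pdgfrb and Kcnj8 of the pericyte list, Cdh5, Tie1 and Erg of the endothelial list and Aif1, C1qa and Tyrobp of the microglial list were not kept in any group. The 75th percentile of the signal lay between 3175 and 4462 and replicates correlated with r between 0.994 and 0.998 across genes. Arrays of different groups deviated together where they shared a slide, in 12 of 12 such pairs, against 11 of 42 other pairs.

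TGFb changed few of the matrix genes within 2.5 h, and most of those it changed rose. Tgfbi, a secreted protein that binds collagens and integrins, and Col1a1, the alpha 1 chain of type I collagen, rose the most in both lines. Timp3, the metalloproteinase inhibitor that is held in the matrix, Mmp2, the gelatinase that cleaves collagen IV, and the heparan sulfate proteoglycan gene Agrn also rose in both lines, and the laminin chain gene Lamc1 fell in both. In knockdown cells 6 of the 40 rose and 1 fell, 17.5% against 9.49% of all genes tested, and the treatments did not overlap for 15 of the 40 (24.1% of all genes). In control cells 8 rose and 1 fell, 22.5% against 10.2% of all genes, and the treatments did not overlap for 13 (22.1% of all genes). These comparisons have no array in common, but the fit takes each gene's spread from all arrays together, so their calls are not independent. In both, 5 genes rose and 1 fell, which is 6 of the 7 calls in knockdown cells and 6 of the 9 in control cells. Between them, 0 moved in opposite directions. The same overlap was not counted over all genes, so it is not shown to be particular to matrix genes. The median change of the 40 was 0.017 in knockdown cells and 0.054 in control cells, against -0.016 and -0.012 over all genes.

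**Figure D1:**
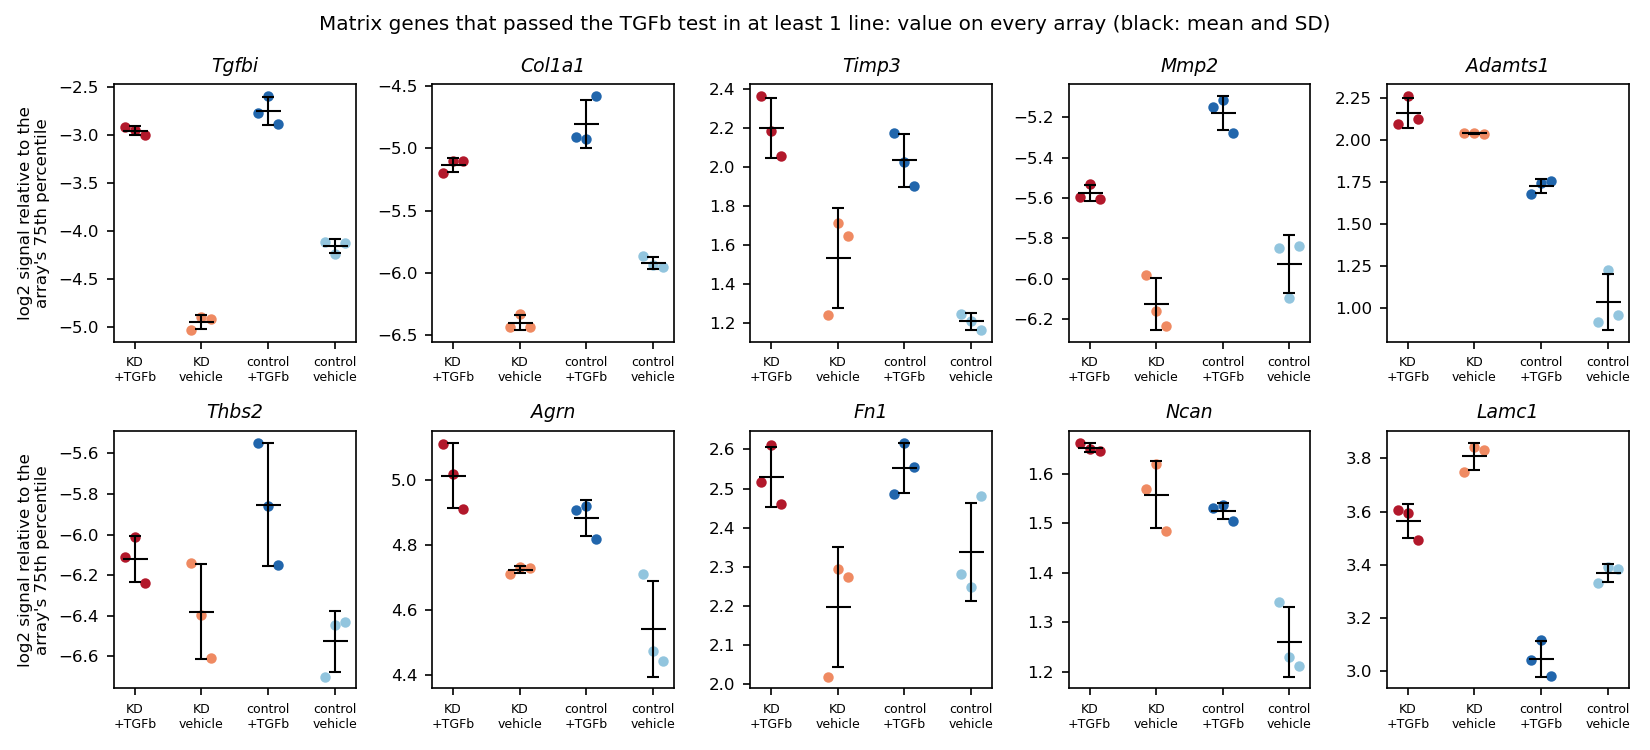
Log2 signal, less the 75th percentile of the array, for the 10 matrix genes that passed the TGFb test in at least 1 line, in the 4 groups of 3 arrays (points: arrays, black: mean and SD). Tgfbi and Col1a1 lie higher with TGFb on every array of both lines, Lamc1 lies lower, and in Adamts1 the gap between treatments is wider in control cells than in knockdown cells.

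Of the 5 fibrillar collagen genes tested, Col1a1 alone passed with TGFb (probe at chr11:94813115-94813174, mm9). Col1a1 in knockdown cells read -5.20, -5.10 and -5.10 with TGFb, against -6.43, -6.33 and -6.44 with vehicle. Col1a1 in control cells read -4.91, -4.93 and -4.58 with TGFb, against -5.87, -5.93 and -5.96 with vehicle. The groups did not overlap in either line. The rise was 1.27 ± 0.11, 2.41-fold higher, adjusted p = 1.79e-05 in knockdown cells and 1.11 ± 0.11, 2.16-fold higher, adjusted p = 4.55e-05 in control cells. Within slides it was 1.24 in knockdown cells and 1.02 to 1.03 in control cells. With normexp background correction it was 0.70 in knockdown cells and 0.69 in control cells, and it passed in both. Its partner chain in type I collagen, Col1a2, changed by -0.17 ± 0.22 in knockdown cells and 0.096 ± 0.22 in control cells (adjusted p = 0.713 and 0.93), which did not pass.

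Of the 10 basement membrane genes, Agrn rose and Lamc1 fell in both lines. Agrn in knockdown cells read 5.11, 5.02 and 4.91 with TGFb, against 4.71, 4.73 and 4.73 with vehicle. Agrn in control cells read 4.91, 4.92 and 4.82 with TGFb, against 4.71, 4.47 and 4.44 with vehicle. Every array with TGFb was above those with vehicle. The rise of Agrn was 0.29 ± 0.072 in knockdown cells and 0.34 ± 0.072 in control cells (adjusted p = 0.0252 and 0.00937). The call in knockdown cells was lost without any 1 of the 6 arrays compared other than TGFb replicate 3 (adjusted p 0.0727 to 0.0803) and with median scaling (adjusted p = 0.157), and with the mean of its kept probes neither line passed (0.24 in knockdown and 0.19 in control cells). The call in control cells was also lost under normexp correction (0.28, adjusted p = 0.0557). Lamc1 encodes the gamma 1 chain that most laminins share. Lamc1 in knockdown cells read 3.61, 3.60 and 3.49 with TGFb, against 3.75, 3.84 and 3.83 with vehicle. Lamc1 in control cells read 3.04, 3.12 and 2.98 with TGFb, against 3.33, 3.39 and 3.38 with vehicle. Each TGFb array was below the vehicle arrays of its line. The fall was -0.24 ± 0.049 in knockdown cells (adjusted p = 0.00771) and -0.32 ± 0.049 in control cells (adjusted p = 0.00101), and median scaling ended the call in knockdown cells (adjusted p = 0.108). The collagen IV gene Col4a1 came closest to passing in control cells (0.24 ± 0.075, adjusted p = 0.0668), and had 0.18 ± 0.075 in knockdown cells (adjusted p = 0.191).

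Among collagen VI and the adhesive glycoproteins, Tgfbi (probe at chr13:56740460-56740519, mm9) rose in both lines. Tgfbi in knockdown cells read -2.92, -2.95 and -3.01 with TGFb, against -5.03, -4.90 and -4.92 with vehicle. Tgfbi in control cells read -2.77, -2.60 and -2.89 with TGFb, against -4.11, -4.25 and -4.13 with vehicle. Under both treatments every knockdown array was below every control array, by a narrower gap with TGFb. The rise was 1.99 ± 0.086, 3.98-fold higher, adjusted p = 3.6e-08 in knockdown cells, and 1.41 ± 0.086, 2.65-fold higher, adjusted p = 6.16e-07 in control cells. Within slides it was 2.01 in knockdown cells and 1.48 to 1.53 in control cells. Fn1 encodes fibronectin, the glycoprotein that links cell surface integrins to collagen. Fn1 in knockdown cells read 2.52, 2.61 and 2.46 with TGFb, against 2.02, 2.29 and 2.27 with vehicle. Fn1 in control cells read 2.49, 2.62 and 2.56 with TGFb, against 2.28, 2.25 and 2.48 with vehicle. Fn1 passed in knockdown cells (0.33 ± 0.083, adjusted p = 0.0252) and not in control cells (0.22 ± 0.083, adjusted p = 0.159). The call was lost with slide as a block (0.23, adjusted p = 0.132), with median scaling (adjusted p = 0.184), when only the groups compared were fitted (adjusted p = 0.0657) and without vehicle replicate 1, TGFb replicate 1 or TGFb replicate 2 of the knockdown line (adjusted p 0.0512 to 0.107). Col6a1, Col6a2 and Fbln2 had changes with TGFb between -0.062 and 0.075, none past the threshold.

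Thbs2, the matricellular protein thrombospondin 2, was the member of its group of 6 that passed, in control cells. Thbs2 in knockdown cells read -6.11, -6.01 and -6.24 with TGFb, against -6.14, -6.40 and -6.61 with vehicle. Thbs2 in control cells read -5.55, -5.86 and -6.15 with TGFb, against -6.70, -6.45 and -6.43 with vehicle. The TGFb and vehicle arrays did not overlap in control cells and did in knockdown cells. The change was 0.26 ± 0.18 in knockdown cells (adjusted p = 0.47) and 0.67 ± 0.18 in control cells (adjusted p = 0.034). The call in control cells was lost without any 1 of the 6 control arrays other than TGFb replicate 3 (adjusted p 0.0653 to 0.126), under normexp correction (0.29, adjusted p = 0.115), with no filter on dim probes (adjusted p = 0.0544) and when only the groups compared were fitted (adjusted p = 0.103). Of the 3 lecticans, Ncan, which encodes neurocan, passed in control cells. Ncan in knockdown cells read 1.66, 1.65 and 1.65 with TGFb, against 1.57, 1.62 and 1.49 with vehicle. Ncan in control cells read 1.53, 1.54 and 1.51 with TGFb, against 1.34, 1.23 and 1.21 with vehicle. The treatments did not overlap in either line. The change of Ncan was 0.095 ± 0.046 in knockdown cells (adjusted p = 0.29) and 0.26 ± 0.046 in control cells (adjusted p = 0.00286).

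Proteases and their inhibitors held 3 of the 9 calls in control cells and 2 of the 7 in knockdown cells. Timp3 in knockdown cells read 2.36, 2.18 and 2.06 with TGFb, against 1.24, 1.71 and 1.65 with vehicle. Timp3 in control cells read 2.17, 2.03 and 1.90 with TGFb, against 1.25, 1.21 and 1.16 with vehicle. Timp3 rose by 0.67 ± 0.12, 1.59-fold higher, adjusted p = 0.00336 in knockdown cells, and by 0.83 ± 0.12, 1.77-fold higher, adjusted p = 0.000641 in control cells. Neither Timp1 nor Timp2 passed with TGFb in either line, with changes between -0.093 and 0.12. Mmp2 in knockdown cells read -5.59, -5.53 and -5.60 with TGFb, against -5.98, -6.16 and -6.23 with vehicle. Mmp2 in control cells read -5.15, -5.12 and -5.28 with TGFb, against -5.85, -6.09 and -5.84 with vehicle. Mmp2 rose by 0.55 ± 0.12, 1.46-fold higher, adjusted p = 0.0105 in knockdown cells, and by 0.75 ± 0.12, 1.68-fold higher, adjusted p = 0.00122 in control cells. Without vehicle replicate 3 of the knockdown line the first of these had adjusted p = 0.0504, and in the authors' own table it was 0.27 (adjusted p = 0.0674). Adamts1 encodes a secreted protease that cleaves lecticans. Adamts1 in knockdown cells read 2.09, 2.26 and 2.12 with TGFb, against 2.04, 2.04 and 2.03 with vehicle. Adamts1 in control cells read 1.68, 1.74 and 1.75 with TGFb, against 0.92, 1.22 and 0.96 with vehicle. The treatments did not overlap in either line, and the gap was narrower in knockdown cells. Adamts1 rose by 0.69 ± 0.074, 1.61-fold higher, adjusted p = 5.91e-05 in control cells, and had 0.12 ± 0.074 in knockdown cells (adjusted p = 0.41), which did not pass.

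Summed marker signals, set mostly by the brightest probes of each list, moved with TGFb or the line for several cell types. For pericytes and smooth muscle, the summed signal, relative to the 75th percentile on a linear scale, was 5.21 to 5.65 in knockdown cells with TGFb, 3.77 to 3.93 in knockdown cells with vehicle, 3.80 to 4.01 in control cells with TGFb and 2.38 to 2.54 in control cells with vehicle. Of the 5 kept markers of that list, Notch3 was higher in all 4 comparisons, Acta2 was higher with TGFb and lower in knockdown cells, and Abcc9, Myh11 and Rgs5 passed in 0 of them. The summed signal of the fibroblast and meningeal markers was 5.35 to 5.87, 6.05 to 6.99, 4.50 to 5.29 and 5.11 to 5.63 in the same order of groups. That of the neural stem cell markers was 270 to 291, 252 to 279, 241 to 265 and 257 to 273, and that of the oligodendrocyte lineage 34.9 to 38.0, 40.6 to 42.8, 37.0 to 37.4 and 45.6 to 49.5, so that it was lower with TGFb in both lines. Neuron markers summed to 11.7 to 12.3 in control cells with TGFb and to more on every other array, up to 14.5. Astrocyte markers summed, in the same order of groups, to 4.05 to 4.81, 3.84 to 4.11, 4.30 to 4.62 and 3.82 to 4.15. Endothelial and microglial sums overlapped in every comparison of groups. Olig1 and Olig2 led the oligodendrocyte sum, Map2 that of neurons and S100b that of astrocytes, so dimmer markers hardly counted. With vehicle, Pdgfra averaged -4.36 in knockdown and -2.39 in control cells on the log2 scale. The values that follow are in the same order, also with vehicle. Olig1 averaged 4.89 and 5.03, Olig2 3.58 and 3.86, Sox10 -4.64 and -4.72, and Mbp -6.98 and -7.62. Among neuron markers, Rbfox3 averaged -4.98 and -3.70, Tubb3 -2.33 and -2.29, Map2 3.50 and 3.39, and Snap25 1.26 and 1.34. Among astrocyte markers, Gfap averaged -4.17 and -5.15, Aqp4 -4.92 and -4.87, and S100b 1.25 and 1.37. Aldh1l1 averaged -0.0024 and -0.11, and Gja1 -1.06 and -1.44. Dcx was higher on every knockdown array than on any control array. The neuron and astrocyte sums of the lines overlapped with vehicle. The part of all these markers in the matrix results was not tested.

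**Figure D2:**
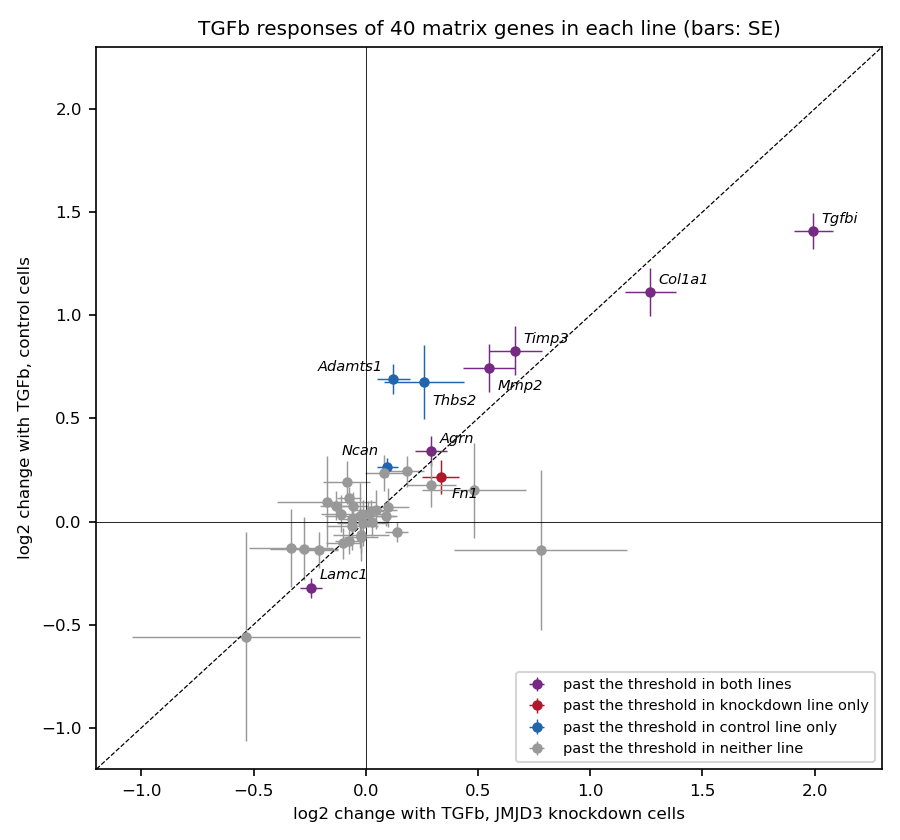
Log2 change with TGFb over vehicle in knockdown cells (horizontal) and control cells (vertical) for the 40 matrix genes tested, with bars of 1 SE. The dashed line marks equal changes: Tgfbi lies to the right of it, Adamts1 above it, and most genes lie near the origin.

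The next question was whether the lines differed in their response, tested as the difference of the TGFb changes (knockdown minus control). By limma, 0 of the 40 matrix genes passed, against 0.0870% of all genes, and 5 had an unadjusted p under 0.05. The 2 with the smallest p went in opposite directions. Adamts1 had a limma difference of -0.57 ± 0.10 (adjusted p = 0.0993), with the larger change in control cells. Tgfbi had 0.58 ± 0.12 (adjusted p = 0.182), with the larger change in knockdown cells. The unadjusted 95% interval of the difference ran from -0.80 to -0.34 for Adamts1 and from 0.32 to 0.85 for Tgfbi. Adamts1 passed without vehicle replicate 2 of the control line (adjusted p = 0.0143) and with estimated array weights (adjusted p = 0.0249). The Tgfbi difference was 0.35 under normexp correction and 0.27 in the authors' own table, on both of which it did not pass. The other 3, Vcan (0.19), Ncan (-0.17) and Timp1 (-0.19), had an adjusted p of 0.881 or higher. The median SE of such a difference was 0.14.

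The knockdown comparisons asked how the lines differ, with and without TGFb. The knockdown line had less RNA of collagen IV, collagen VI, perlecan, Sparc and the inhibitors Timp1 and Timp2, and more of laminin gamma 1, nidogen, Sparcl1, osteopontin, the lecticans versican and brevican by the probe that stands for each, and the proteases Mmp14 and Adamts1. With TGFb, 8 of the 40 were higher and 10 lower, 45.0% against 29.0% of all genes tested, and the lines did not overlap for 26 (38.7% of all genes). Without TGFb, 11 were higher and 12 lower, 57.5% against 27.8% of all genes, and the lines did not overlap for 25 (41.1% of all genes). These comparisons too have no array in common but share each gene's estimate of spread, so their calls are not independent. In both, 8 genes were higher and 9 lower, which is 17 of the 18 calls with TGFb and 17 of the 23 without. Between them, 0 went in opposite directions. Calls shared by the 2 comparisons were not counted over all genes, so this overlap is not shown to be particular to matrix genes. For 8 genes all 6 knockdown arrays lay above all 6 control arrays (9.08% of all genes did), and for another 8 they lay below (11.2% of all genes, 20.3% for both directions together). The shares called and the counts of lower and of non-overlapping genes include Prelp. That gene entered the tests through the control vehicle group alone, where it is high, and is no support for a fall. The median change of the 40 was -0.019 with TGFb and 0.092 without, against -0.014 and -0.017 over all genes.

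**Figure D3:**
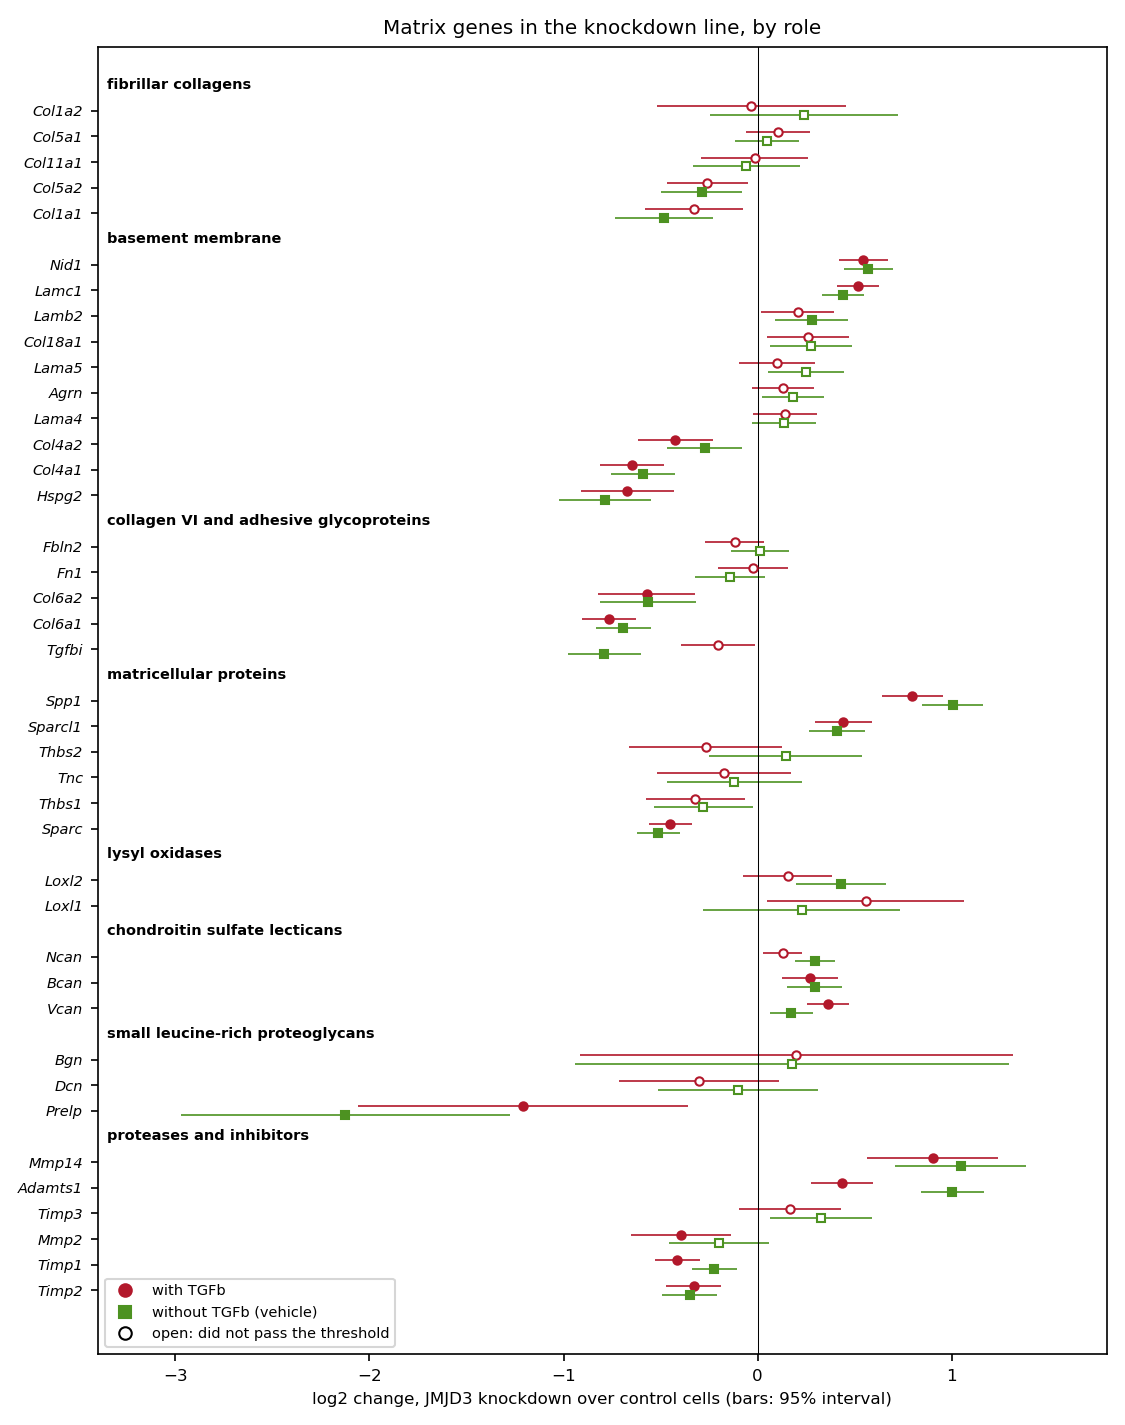
Log2 change in knockdown over control cells for the 40 matrix genes tested, grouped by role, with TGFb (circles) and without (squares), and bars for the 95% interval. Filled symbols passed the threshold. Collagen IV, collagen VI, Hspg2 and Sparc lie left of 0 under both treatments and Mmp14, Spp1, Nid1 and Lamc1 right of it.

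Among the fibrillar collagens, Col1a1 and Col5a2 were lower in knockdown cells with vehicle. Col1a1 had -0.33 ± 0.11 with TGFb (adjusted p = 0.054, short of the threshold) and -0.48 ± 0.11, 1.4-fold lower, adjusted p = 0.00858, with vehicle. Normexp correction ended its vehicle call (-0.24, adjusted p = 0.065), as did the authors' own table (-0.19, adjusted p = 0.0909). Col5a2 is a chain of collagen V, which sits inside collagen I fibrils. With TGFb, Col5a2 read -1.18, -1.11 and -1.17 in knockdown cells, against -1.02, -0.82 and -0.85 in control cells. With vehicle, Col5a2 read -1.12, -1.28 and -1.36 in knockdown cells, against -0.76, -1.12 and -1.03 in control cells. Col5a2 had -0.26 ± 0.095 with TGFb (adjusted p = 0.0615) and -0.29 ± 0.095 with vehicle (adjusted p = 0.0417), and the vehicle call was lost without vehicle replicates 1 or 3 of the control line or 2 or 3 of the knockdown line (adjusted p 0.0651 to 0.153). It was also lost with the replicate number as a block (adjusted p = 0.0681) and in 5 other settings (adjusted p 0.0519 to 0.0934). Within each treatment the lines did not overlap for Col5a2. Col5a1 and Col11a1 had changes between -0.058 and 0.11, none past the threshold.

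Of the 10 basement membrane genes, 2 were higher and 3 lower in knockdown cells with TGFb, and 3 were higher and 3 lower with vehicle. Col4a1 and Col4a2 encode the chains of the main collagen IV and lie beside each other on chromosome 8. With TGFb, Col4a1 read -1.32, -1.34 and -1.47 in knockdown cells, against -0.76, -0.65 and -0.78 in control cells. With vehicle, Col4a1 read -1.64, -1.49 and -1.55 in knockdown cells, against -1.10, -0.98 and -0.84 in control cells. All 6 knockdown arrays were below all 6 control arrays. Col4a1 was lower, at -0.65 ± 0.075, 1.57-fold lower, adjusted p = 7.28e-05, with TGFb and at -0.59 ± 0.075, 1.5-fold lower, adjusted p = 0.000146, with vehicle. With TGFb, Col4a2 read -1.23, -1.29 and -1.47 in knockdown cells, against -0.83, -0.83 and -1.06 in control cells. With vehicle, Col4a2 read -1.52, -1.35 and -1.36 in knockdown cells, against -1.24, -1.15 and -1.04 in control cells. Col4a2 was lower, at -0.42 ± 0.088 with TGFb (adjusted p = 0.00356) and -0.27 ± 0.088 with vehicle (adjusted p = 0.0381). Its vehicle call was lost without any 1 of the 6 vehicle arrays other than control replicate 1 (adjusted p 0.0551 to 0.148), with the replicate number as a block (adjusted p = 0.0642), and under normexp correction, median scaling or in the authors' own table (adjusted p = 0.0706, 0.156 and 0.0776). Hspg2 encodes perlecan, a large heparan sulfate proteoglycan. With TGFb, Hspg2 read 0.17, 0.22 and 0.054 in knockdown cells, against 0.79, 0.92 and 0.75 in control cells. With vehicle, Hspg2 read -0.36, -0.0021 and -0.074 in knockdown cells, against 0.58, 0.48 and 0.86 in control cells. Hspg2 was lower, at -0.67 ± 0.11, 1.59-fold lower, adjusted p = 0.000735, with TGFb and at -0.79 ± 0.11, 1.72-fold lower, adjusted p = 0.000257, with vehicle.

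Nid1 and Lamc1 were higher in both comparisons and Lamb2 with vehicle. Nid1 encodes nidogen 1, which joins laminin to collagen IV. With TGFb, Nid1 read -0.81, -0.72 and -0.77 in knockdown cells, against -1.37, -1.28 and -1.30 in control cells. With vehicle, Nid1 read -0.79, -0.81 and -0.78 in knockdown cells, against -1.26, -1.47 and -1.36 in control cells. Nid1 was higher by 0.55 ± 0.057, 1.46-fold higher, adjusted p = 3.68e-05, with TGFb, and by 0.57 ± 0.057, 1.49-fold higher, adjusted p = 2.57e-05, with vehicle. Lamc1, whose values are given above, was higher by 0.52 ± 0.049, 1.43-fold higher, adjusted p = 1.7e-05, with TGFb, and by 0.44 ± 0.049, 1.36-fold higher, adjusted p = 5.6e-05, with vehicle. For both genes all 6 knockdown arrays were above all 6 control arrays, while TGFb lowered Lamc1 within each line. Lamb2 is the laminin beta 2 chain. With TGFb, Lamb2 read 1.17, 0.94 and 0.92 in knockdown cells, against 0.91, 0.89 and 0.61 in control cells. With vehicle, Lamb2 read 1.16, 1.25 and 1.25 in knockdown cells, against 0.87, 0.95 and 1.01 in control cells. Lamb2 had 0.21 ± 0.086 with TGFb (adjusted p = 0.1) and passed with vehicle (0.28 ± 0.086, adjusted p = 0.0323), a call that was lost without any 1 of the 6 vehicle arrays other than knockdown replicate 1 (adjusted p 0.0505 to 0.105), with the replicate number as a block (adjusted p = 0.0541) and with median scaling (adjusted p = 0.118). By the probes that stand for them, Col18a1, Lama5, Lama4 and Agrn had changes between 0.10 and 0.28, none past the threshold, with Col18a1 and Lama5 nearest to it with vehicle (adjusted p = 0.0538 and 0.0579). A second kept probe of Col18a1, whose collagen XVIII carries heparan sulfate chains, passed in both comparisons (0.35 with TGFb, adjusted p = 0.00418, and 0.29 with vehicle, adjusted p = 0.013). That of Nid1 passed with TGFb (0.79, adjusted p = 0.00346) and had 0.45 with vehicle (adjusted p = 0.0595), and that of Hspg2 passed in both (-0.66 and -0.55, adjusted p = 0.00279 and 0.00884).

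Col6a1 and Col6a2, whose chains form collagen VI and which share chromosome 10, were both lower. With TGFb, Col6a1 read -1.65, -1.69 and -1.77 in knockdown cells, against -0.94, -0.83 and -1.04 in control cells. With vehicle, Col6a1 read -1.68, -1.55 and -1.68 in knockdown cells, against -0.98, -0.94 and -0.92 in control cells. Col6a1 had -0.77 ± 0.064, 1.7-fold lower, adjusted p = 6.94e-06, with TGFb and -0.69 ± 0.064, 1.61-fold lower, adjusted p = 1.39e-05, with vehicle. With TGFb, Col6a2 read -4.82, -4.74 and -4.77 in knockdown cells, against -3.999, -4.18 and -4.44 in control cells. With vehicle, Col6a2 read -4.78, -4.66 and -4.86 in knockdown cells, against -4.21, -4.13 and -4.26 in control cells. Col6a2 had -0.57 ± 0.11, 1.49-fold lower, adjusted p = 0.00264, with TGFb and -0.57 ± 0.11, 1.48-fold lower, adjusted p = 0.00297, with vehicle. For each of them all 6 knockdown arrays were below all 6 control arrays. Tgfbi was lower with vehicle (-0.79 ± 0.086, 1.73-fold lower, adjusted p = 4.89e-05) and had -0.20 ± 0.086 with TGFb (adjusted p = 0.104), which did not pass. The vehicle value was -0.50 in the authors' own table, where it passed.

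The matricellular proteins Sparc and Sparcl1, relatives that share a collagen-binding domain, differed in opposite directions. With TGFb, Sparc read 6.13, 5.997 and 6.02 in knockdown cells, against 6.54, 6.55 and 6.40 in control cells. With vehicle, Sparc read 5.95, 5.97 and 5.96 in knockdown cells, against 6.49, 6.44 and 6.48 in control cells. Sparc had -0.45 ± 0.050, 1.37-fold lower, adjusted p = 5.76e-05, with TGFb and -0.51 ± 0.050, 1.43-fold lower, adjusted p = 2.15e-05, with vehicle. With the mean of its kept probes the value with TGFb was -0.25 (adjusted p = 0.105), and its second kept probe had -0.060 with TGFb and -0.42 with vehicle (adjusted p = 0.88 and 0.219). With TGFb, Sparcl1 read 6.52, 6.58 and 6.48 in knockdown cells, against 6.15, 6.15 and 5.96 in control cells. With vehicle, Sparcl1 read 6.50, 6.47 and 6.53 in knockdown cells, against 6.21, 6.08 and 5.99 in control cells. Sparcl1 had 0.44 ± 0.066, 1.36-fold higher, adjusted p = 0.000442, with TGFb and 0.41 ± 0.066, 1.33-fold higher, adjusted p = 0.000781, with vehicle. Spp1 encodes osteopontin, an integrin ligand. With TGFb, Spp1 read -1.23, -1.22 and -1.29 in knockdown cells, against -2.05, -2.03 and -2.03 in control cells. With vehicle, Spp1 read -1.24, -1.06 and -1.04 in knockdown cells, against -2.25, -2.03 and -2.07 in control cells. Spp1 had 0.80 ± 0.072, 1.74-fold higher, adjusted p = 1.23e-05, with TGFb and 1.01 ± 0.072, 2.01-fold higher, adjusted p = 1.88e-06, with vehicle. In Sparc all knockdown arrays were below the control arrays, and in Sparcl1 and Spp1 above them. Thbs1, Thbs2 and Tnc did not pass, with Thbs1 nearest to the threshold (-0.32 ± 0.12 with TGFb, adjusted p = 0.0593).

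Mmp14, the membrane protease that activates pro-Mmp2, was the gene of the 40 with the largest rise in knockdown cells, under either treatment. With TGFb, Mmp14 read -3.63, -4.02 and -4.14 in knockdown cells, against -4.72, -4.89 and -4.89 in control cells. With vehicle, Mmp14 read -3.91, -3.46 and -3.59 in knockdown cells, against -4.75, -4.52 and -4.82 in control cells. All 6 knockdown arrays were above all 6 control arrays. Mmp14 had 0.90 ± 0.15, 1.87-fold higher, adjusted p = 0.00102, with TGFb and 1.05 ± 0.15, 2.06-fold higher, adjusted p = 0.000379, with vehicle. Adamts1 had 0.44 ± 0.074, 1.35-fold higher, adjusted p = 0.000992, with TGFb and 1.004 ± 0.074, 2.01-fold higher, adjusted p = 2.32e-06, with vehicle, and its knockdown arrays with vehicle lay above the control arrays with TGFb. Mmp2 was lower with TGFb (-0.39 ± 0.12, adjusted p = 0.025), a call lost without any 1 of the 6 TGFb arrays other than control replicate 3 (adjusted p 0.05001 to 0.0864), with no filter on dim probes (adjusted p = 0.0503) or when only the groups compared were fitted (adjusted p = 0.0509), and had -0.20 ± 0.12 with vehicle (adjusted p = 0.263).

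Of the 3 inhibitors, Timp1 and Timp2 were lower. With TGFb, Timp1 read -1.01, -1.12 and -1.05 in knockdown cells, against -0.65, -0.57 and -0.72 in control cells. With vehicle, Timp1 read -1.01, -0.99 and -0.96 in knockdown cells, against -0.80, -0.70 and -0.79 in control cells. Timp1 had -0.41 ± 0.053 with TGFb (adjusted p = 0.000143) and -0.22 ± 0.053 with vehicle (adjusted p = 0.00813), and the vehicle call was lost with median scaling (adjusted p = 0.155). Timp2 inhibits Mmp2 and, bound to Mmp14, also takes part in its activation. With TGFb, Timp2 read 2.39, 2.42 and 2.25 in knockdown cells, against 2.62, 2.74 and 2.68 in control cells. With vehicle, Timp2 read 2.36, 2.55 and 2.37 in knockdown cells, against 2.82, 2.81 and 2.70 in control cells. Timp2 had -0.33 ± 0.065 with TGFb (adjusted p = 0.00262) and -0.35 ± 0.065 with vehicle (adjusted p = 0.0019). A second kept probe of Timp2 had -0.28 with TGFb (adjusted p = 0.0204) and -0.21 with vehicle (adjusted p = 0.0758). In Timp1 and in Timp2 all knockdown arrays were below all control arrays. Timp3 had 0.17 ± 0.12 with TGFb and 0.33 ± 0.12 with vehicle (adjusted p = 0.341 and 0.0631), neither of which passed.

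The lecticans were higher in knockdown cells by the probe that stands for each gene. Vcan encodes versican. With TGFb, Vcan read 1.39, 1.37 and 1.32 in knockdown cells, against 0.96, 1.02 and 1.02 in control cells. With vehicle, Vcan read 1.21, 1.21 and 1.24 in knockdown cells, against 1.03, 0.96 and 1.15 in control cells. Vcan had 0.36 ± 0.050 with TGFb (adjusted p = 0.000245) and 0.17 ± 0.050 with vehicle (adjusted p = 0.0228), the second of which was lost without any 1 of the 6 vehicle arrays other than control replicate 3 (adjusted p 0.0504 to 0.0881) and in 5 other settings (adjusted p 0.0647 to 0.658). Bcan encodes brevican, a lectican made in the brain. With TGFb, Bcan read 5.87, 5.80 and 5.75 in knockdown cells, against 5.56, 5.62 and 5.44 in control cells. With vehicle, Bcan read 5.75, 5.71 and 5.93 in knockdown cells, against 5.53, 5.53 and 5.45 in control cells. Bcan had 0.27 ± 0.065 with TGFb (adjusted p = 0.00889) and 0.29 ± 0.065 with vehicle (adjusted p = 0.0056), and neither call held with median scaling (adjusted p = 0.109 and 0.0574). Ncan passed with vehicle (0.30 ± 0.046, adjusted p = 0.000601) and not with TGFb (0.13 ± 0.046, adjusted p = 0.059).

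The other kept probes of Bcan and Vcan did not show these rises. The probe of Bcan that stands for the gene lies at chr3:87791457-87791516 and holds the polyadenylation letters AATAAA, and the file assigns the other, at chr3:87796466-87796525 (both mm9, minus strand), to a different transcript. Those letters, searched on the probe strand, were in 8 of the 40 probes that stand for a tested matrix gene (20.0%), against 12.6% of all 39429 probes. With TGFb that second Bcan probe read 1.95, 1.84 and 1.87 in knockdown cells, against 1.998, 2.07 and 1.99 in control cells. With vehicle it read 1.96, 1.92 and 1.90 in knockdown cells, against 2.27, 2.04 and 2.06 in control cells. The lines did not overlap under either treatment. Tested with all kept probes, it was lower in knockdown cells with vehicle (-0.20, adjusted p = 0.0286) and had -0.13 with TGFb (adjusted p = 0.12). The log2 ratio of the first Bcan probe to the second was higher by 0.45 in knockdown than in control cells (exact permutation test over 400 relabellings within treatments, two-sided p = 0.005, the smallest it can give, adjusted p = 0.14). The third probe of Vcan at chr13:89851810-89851869 had -0.20 with TGFb and -0.029 with vehicle (adjusted p = 0.106 and 0.88), and the other kept Vcan probe, the second, had 0.19 and 0.043 (adjusted p = 0.501 and 0.926). The ratio of the first Vcan probe to the third was higher by 0.38 (p = 0.01 by the same permutation test, adjusted p = 0.14). With the mean of its kept probes Bcan had 0.067 and 0.048 and Vcan 0.12 and 0.062, with and without TGFb, and none passed. The adjusted permutation p-values cover 28 tests on the 14 probe pairs of 11 matrix genes. With a smallest p of 0.005, no single test could pass by itself.

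**Figure D4:**
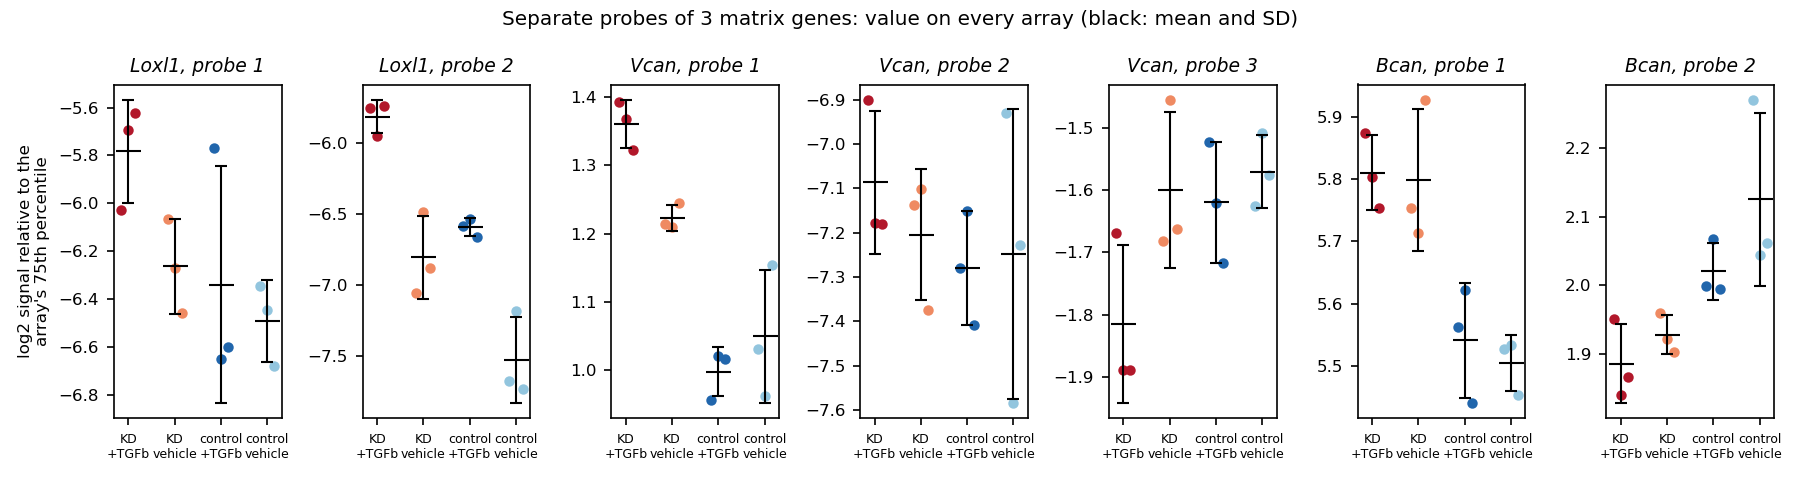
Log2 signal, less the 75th percentile of the array, for each kept probe of Loxl1, Vcan and Bcan in the 4 groups of 3 arrays (points: arrays, black: mean and SD). Probe 1 stands for the gene in the tests. Bcan probe 1 lies higher and probe 2 lower in knockdown cells, and Loxl1 probe 2 separates the treatments in both lines, probe 1 in the knockdown line alone.

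Of the lysyl oxidases, which cross-link collagen, Loxl2 passed in knockdown cells with vehicle. With TGFb, Loxl2 read -2.94, -3.15 and -3.20 in knockdown cells, against -3.18, -3.33 and -3.24 in control cells. With vehicle, Loxl2 read -3.20, -2.83 and -3.01 in knockdown cells, against -3.46, -3.34 and -3.52 in control cells. Loxl2 had 0.15 ± 0.10 with TGFb (adjusted p = 0.314) and 0.43 ± 0.10 with vehicle (adjusted p = 0.00956). With the mean of its 4 kept probes, 1 of which lies on chromosome 2 and the others on chromosome 14, the vehicle value was 0.10 (adjusted p = 0.575). The call was also lost under normexp correction (adjusted p = 0.0773) and in the authors' own table (adjusted p = 0.0847). Loxl1 did not pass any comparison by the probe that stands for it, the first of the Loxl1 probes shown. With TGFb that probe had 0.48 ± 0.23 in knockdown cells and 0.15 ± 0.23 in control cells (adjusted p = 0.282 and 0.869). The second Loxl1 probe in knockdown cells read -5.75, -5.95 and -5.74 with TGFb, against -7.05, -6.48 and -6.88 with vehicle. In control cells this probe read -6.58, -6.53 and -6.66 with TGFb, against -7.67, -7.18 and -7.73 with vehicle. By it, Loxl1 rose with TGFb by 0.99 in knockdown cells and 0.94 in control cells (adjusted p = 0.00553 and 0.00722), and was higher in knockdown cells by 0.78 with TGFb and 0.73 without (adjusted p = 0.00888 and 0.0136). The change with TGFb of the ratio of the first to the second probe was -0.65 (exact permutation test within lines, p = 0.02, adjusted p = 0.14).

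Prelp is a small leucine-rich proteoglycan gene. With TGFb, Prelp read -10.52, -9.41 and -8.98 in knockdown cells, against -8.34, -8.80 and -8.15 in control cells. With vehicle, Prelp read -10.55, -10.58 and -10.13 in knockdown cells, against -8.34, -8.29 and -8.25 in control cells. Prelp was not well above background on any knockdown array, and was on 1 of 3 control arrays with TGFb and 3 of 3 with vehicle. It entered the tests through the control vehicle group alone, where it is high, so its calls, included in the counts of genes lower in knockdown cells (adjusted p = 0.0361 with TGFb and 0.00168 with vehicle), are not support for a fall. The size has only a bound, at least 1.07-fold with TGFb, where control cells were above background on 1 array, and at least 1.00-fold with vehicle, which sets no difference. Under normexp correction the changes were -0.14 (adjusted p = 0.309) and -0.28 (adjusted p = 0.0379). The call with TGFb was lost without 4 of the 6 arrays, namely TGFb replicates 1 and 3 of the control line and 1 and 2 of the knockdown line (adjusted p 0.0581 to 0.108), and in the authors' own table (adjusted p = 0.0699), with array weights (adjusted p = 0.167) and when only the groups compared were fitted (adjusted p = 0.114). Dcn and Bgn did not pass in any comparison, and the SE of Bgn was 0.51. In all, 28 of the 40 genes, Prelp included, passed in at least 1 comparison by the probe that stands for them. The other 12 (Col1a2, Col5a1, Col11a1, Col18a1, Lama4, Lama5, Fbln2, Tnc, Thbs1, Loxl1, Dcn and Bgn) had changes between -0.56 and 0.56. How many of all genes passed in at least 1 comparison was not counted, so the 28 cannot be set against a background.

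All 57 calls kept their direction within every slide that held both groups of the comparison. The compared groups did not overlap for the called genes, so this had to follow and is no separate support for the calls. Slide 1 held vehicle arrays and slide 4 TGFb arrays alone, so that the TGFb changes within slides come from slide 3 in knockdown cells and from slides 2 and 3 in control cells.

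A wider list of 148 other matrix genes, chosen by function, gave 131 that were kept. With TGFb, 16 rose and 4 fell in knockdown cells (9.49% of all genes were called), and 24 rose and 6 fell in control cells (10.2% of all genes). The largest rise in both lines was that of Col2a1, the collagen of cartilage, at 4.92 ± 0.10 in knockdown cells and 5.47 ± 0.10 in control cells. Has2, which makes hyaluronan, rose by 2.95 ± 0.11 in knockdown cells and 3.01 ± 0.11 in control cells. Adamtsl2 rose by 3.05 ± 0.17 and 3.01 ± 0.17, in the same order, and P4ha2, a prolyl hydroxylase of collagen, was next in knockdown cells (1.45 ± 0.12). The largest falls were those of the proteases Adamts15 (-1.46 ± 0.14 in knockdown cells, -1.21 ± 0.14 in control cells) and Adamts5 (-0.83 ± 0.16 and -0.88 ± 0.16), followed by Adamts9 (-0.53 ± 0.094 and -0.63 ± 0.094) and Ecm2 (-0.37 ± 0.086 and -0.70 ± 0.086). Under normexp correction Adamts5 lost both calls and Ecm2 that in knockdown cells, which was also lost with slide as a block and in the authors' own table. By line, 21 of the 131 were higher and 31 lower in knockdown cells with TGFb (29.0% of all genes were called), and 25 were higher and 29 lower without (27.8% of all genes).

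With TGFb the largest differences between the lines were those of Smoc2 (1.50 ± 0.078), Adamts17 (0.89 ± 0.11), Ecm2 (0.88 ± 0.086) and Mgp (0.88 ± 0.15) among genes higher in knockdown cells. Among those lower were the laminin chain Lamb3 (-1.24 ± 0.11), the brain glycoprotein Tnr (-1.03 ± 0.10), the cross-linking transglutaminase Tgm2 (-1.03 ± 0.073) and Adamtsl3 (-0.87 ± 0.20). Without TGFb, Mgp (3.23 ± 0.15), Smoc2 (1.40 ± 0.078), Adamts17 (1.04 ± 0.11) and Col27a1 (0.89 ± 0.16) were higher, and Lamb3 (-1.33 ± 0.11), Adamtsl3 (-1.10 ± 0.20), Adamts16 (-0.91 ± 0.15) and Tnr (-0.86 ± 0.10) lower. Mgp, matrix Gla protein, an inhibitor of calcification, was the gene of this list that passed the test of the difference of TGFb responses. Mgp in knockdown cells read -3.15, -3.30 and -3.23 with TGFb, against -4.43, -4.67 and -4.58 with vehicle. Mgp in control cells read -4.03, -4.13 and -4.14 with TGFb, against -7.99, -7.98 and -7.40 with vehicle. With TGFb the change was 1.33 ± 0.15 in knockdown cells and 3.69 ± 0.15 in control cells.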

How the data were processed

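Total RNA of 12 samples was labelled with Cy3 by oligo-dT amplification, per the labels' protocols, and hybridised to 1-colour Agilent mouse arrays. The deposited scanner files hold a background-corrected intensity per spot on a linear scale, read with Feature Extraction 10.7.3.1, with probe positions on mm9, per the file headers. The authors also deposited a table of log2 values, with a median of 7.93 in the first of its 12 columns. Each column correlated best with its own array, so its array and direction are known. Its background correction and normalization are not given in the sources cited.

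Control spots (1377 of each array, beside 43020 gene spots) and outlier-flagged spots were set aside, spots of a probe averaged, and log2 intensity taken relative to the array's 75th percentile. Of 39429 probes, 29968 were well above background on all 3 arrays of a group, and of a gene's kept probes the brightest on average stood for it. Names were updated through RefSeq (GRCm38.p6) for 26055 probes, 3358 of them changed, and others kept the file's name. No annotation of mm9 was used here, so exons and UTRs are not stated. A probe below background in a group has only a bound. It sets the bright group's mean against that of the dim arrays, each at no less than its lowest well-above-background signal.

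The tests came from limma 3.58.1 (R 4.3.3; trend, two-sided, 8 residual and 3.11 prior degrees of freedom, Benjamini-Hochberg), tested on simulated data. Motifs and probe ratios used Python 3.11.15. The members, gene lists and rule for named genes were chosen with earlier results of these data known. Members past the threshold in a comparison are given on every array and the others by range, except those nearest the threshold, which are named. Kdm6b, TGFb targets (1 of the list is not reported here) and, per comparison, the 4 other matrix genes that rose most and the 4 that fell most are named too. The number of arrays limits the precision (median SE 0.10). Alternatives were another background correction, scalings, filters, probe rules, blocks, array weights, the authors' table, and leaving out single arrays. Among vehicle arrays, same-numbered arrays of the lines share a slide and their deviations from the group means correlate (0.473, 0.582 and 0.248), so the numbers pair them. In the other comparisons the numbers do not pair the arrays. All 12 sample columns of the authors' table were used.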

Additional observations from a re-analysis of the deposited data

Results flagged for a closer look

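Mgp differed between the lines in its response to TGFb by -2.35 ± 0.21 (knockdown minus control, limma adjusted p = 0.00259), by a test of the difference itself. The lines were furthest apart with vehicle, where knockdown cells averaged -4.56 and control cells -7.79. Under normexp correction the difference was -0.50 (adjusted p = 0.333). In the authors' own table it was -0.58 (adjusted p = 0.122). The cause was not tested.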

How the results depend on the processing

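Of the 57 calls of matrix genes, 38 passed under every alternative run and without any 1 array. The other 19 were lost under at least 1 other setting, 10 of them also without at least 1 array, and none changed direction in any setting. Leaving out each array in turn gave 5 to 7 calls with TGFb in knockdown cells (7 with all arrays), 8 to 9 in control cells (9), 16 to 19 for knockdown with TGFb (18), 19 to 23 without (23), and 0 to 1 for the difference of responses (0). That 1 was Adamts1, without control vehicle replicate 2. Scaling by the array median gave 4 calls with TGFb in knockdown cells, with Lamc1, Agrn and Fn1 lost, while estimated array weights gave 12, and 1 for the difference of responses. Over all genes the weights gave 5319 calls with TGFb in knockdown cells, against 2291 without weights, 10633 against 6998 for knockdown with TGFb, and 95 against 21 for the difference, which had 45 with slide as a block, 11 with the replicate block and 7 with median scaling. Median scaling gave 1470 calls with TGFb in knockdown cells and 4344 for knockdown without TGFb (6722 with the 75th percentile). With the replicate block, knockdown without TGFb had 20 calls, with Col5a2, Col4a2 and Lamb2 lost, or 25 when fitted on the vehicle arrays alone, an alternative added after seeing the data that kept all 23. Testing the probe that stands for each gene among all 29968 kept probes, also added after seeing the data, kept every call. It used the same values under a wider adjustment, so it says nothing about the other probes of a gene. The replicate block changed no other call of a matrix gene. Normexp correction gave 18 calls for knockdown without TGFb, as did the authors' table. The cause of these shifts was not tested. Some sizes depend on the background correction: Col1a1, Mmp2, Thbs2 and Prelp moved by over 1.5 times under normexp correction. Of these, Prelp alone was not well above background on all 12 arrays, and whether low signal plays a part was not tested.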
